A study of Mus musculus with 100 samples.

Results

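The 2179 sites described here were distal genomic sites at which the nuclear receptor corepressor NCoR gained binding when mouse bone marrow-derived macrophages (BMDMs) were given KLA (Kdo2 lipid A), the lipopolysaccharide component that activates the receptor TLR4. They were chosen by their NCoR levels alone, out of 55045 NCoR sites, of which 44067 were distal. A site was distal when its listed distance to a transcription start site (TSS) was over 2000 bp. A site was gained when the mean NCoR level with KLA was 50 or more tags per 10 M sequenced tags, and when the KLA mean plus 5 was at least 4 times the vehicle (Veh) mean plus 5. The chosen sites made up 4.94% of the distal sites. For comparison, 7654 distal sites with a KLA mean of 50 or more and a ratio within 1.5-fold of 1 were called kept, and 1123 distal sites with a Veh mean of 50 or more and a ratio of 1/4 or less were called lost.

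The data were ChIP-seq tag counts (DNA recovered with antibodies from fixed chromatin and sequenced) of 70 libraries in groups of 2. NCoR, the histone deacetylase HDAC3, the NFκB subunit p65, the acetyltransferase p300, the coactivator PGC1β, the AP-1 subunit Fosl2, the kinase ERK1 and the lineage factor PU.1 were profiled in wild type C57BL/6 BMDMs with Veh or with KLA for 6 h. The Veh libraries of p300 are described as 0 h of KLA. NCoR with KLA and PGC1β with KLA were also profiled after an ERK inhibitor (ERKi), the latter against DMSO with Veh or KLA. Histone H3 acetylated at lysine 27 (H3K27ac), a mark of active enhancers and promoters, was profiled with Veh or KLA in NCoR flox/flox BMDMs (named WT in that experiment) and in NCoR flox/flox LysMCre BMDMs (NKO). It was also profiled with Veh or KLA in Pgc1b flox/flox BMDMs with or without LysMCre, and in wild type BMDMs given DMSO with Veh, DMSO with KLA, or the HDAC3 inhibitor RGFP966 with KLA. LysMCre is expressed in myeloid cells, and both floxed controls carried the floxed alleles without Cre. p300 and ERK1 were further profiled in osteoclast cultures of wild type C57BL/6 bone marrow cells, as precursors (Day0) and after 4 days of RANKL, the cytokine that drives osteoclast differentiation (Day4).

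NCoR is a large scaffold protein that binds HDAC3 and activates its deacetylase function, and it is best known for repressing genes through unliganded nuclear receptors. TLR4 activates NFκB, whose p65 subunit enters the nucleus, and the MAP kinases, which include ERK and raise AP-1 activity. PU.1 and C/EBP factors mark macrophage enhancers before stimulation, and p300 deposits H3K27ac.

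Library totals ranged from 4.30 to 21.5 M tags, and the Fosl2 KLA library of 4.30 M and an HDAC3 KLA library of 5.69 M were among the smallest. Levels below are tags per 10 M by these totals, and a called change is an adjusted p-value under 0.05 by edgeR's quasi-likelihood test together with more than a 2-fold change. The labels call the libraries biological replicates but do not name the animals, so p-values measure the spread between these samples, which may in part be technical. H3K27ac regions were present at 6 of 6 macrophage marker genes in each H3K27ac table, with a summed level of 577 to 846 in the WT and NKO libraries, and at none of the T cell, B cell, fibroblast and hepatocyte markers searched. Neutrophil markers had a region at 1 of 3 genes (2.21 to 26.2) and epithelial markers at 1 of 2 genes (2.32 to 7.37) in that table. Epithelial markers were higher in the other H3K27ac tables, at 2 of 2 genes (28.5 to 156 in the RGFP966 experiment and 47.1 to 113 in the Pgc1b experiment), where the macrophage sum was 2820 or more, and their part in the results was not tested.

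A set of 8 of the gained sites illustrates the DNA under them. The 200 bp around each centre are given on the + strand of mm10 (GRCm38.p6, RefSeq), in lower case. Capitals mark matches, on either strand, to the κB site GGANTTTCC, the AP-1 site TGANTCA, the interferon-response letters GAAANNGAA (ISRE) or the PU.1 site GAGGAAGT. The first 3 sites hold a κB match, Nfkbiz holds AP-1 letters alone, and Il6 and Irf8 hold ISRE letters alone. Socs3 holds a PU.1 match. Cd83, the site with the highest NCoR level with KLA, holds none of the 10 motifs searched. Only the exact letters of each motif were searched, so other forms of a site, κB included, were not counted.
Nfkb1, chr3:135670647-135670846, + strand: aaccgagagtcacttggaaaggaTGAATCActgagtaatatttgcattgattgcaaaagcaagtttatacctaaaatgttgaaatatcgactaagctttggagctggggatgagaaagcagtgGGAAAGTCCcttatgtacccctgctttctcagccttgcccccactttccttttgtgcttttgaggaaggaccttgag
Kdm6b, chr11:69410751-69410950, + strand: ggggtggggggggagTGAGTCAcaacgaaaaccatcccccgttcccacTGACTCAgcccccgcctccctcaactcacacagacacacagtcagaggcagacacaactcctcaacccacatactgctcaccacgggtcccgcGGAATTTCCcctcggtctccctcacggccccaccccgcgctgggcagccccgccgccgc
Tnfaip3, chr10:19078198-19078397, + strand: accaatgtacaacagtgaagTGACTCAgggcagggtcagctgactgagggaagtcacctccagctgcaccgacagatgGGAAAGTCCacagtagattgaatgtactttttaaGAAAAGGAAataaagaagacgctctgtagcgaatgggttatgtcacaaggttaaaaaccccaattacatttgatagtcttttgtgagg
Nfkbiz, chr16:55687670-55687869, + strand: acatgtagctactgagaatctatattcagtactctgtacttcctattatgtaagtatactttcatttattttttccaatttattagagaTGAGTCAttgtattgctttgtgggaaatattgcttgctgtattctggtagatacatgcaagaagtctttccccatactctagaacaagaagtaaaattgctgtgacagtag
Il6, chr5:29880236-29880435, + strand: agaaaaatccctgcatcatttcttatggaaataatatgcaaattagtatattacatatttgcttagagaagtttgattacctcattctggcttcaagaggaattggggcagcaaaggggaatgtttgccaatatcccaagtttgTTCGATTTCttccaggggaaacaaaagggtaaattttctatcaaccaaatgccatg
Irf8, chr8:120711385-120711584, + strand: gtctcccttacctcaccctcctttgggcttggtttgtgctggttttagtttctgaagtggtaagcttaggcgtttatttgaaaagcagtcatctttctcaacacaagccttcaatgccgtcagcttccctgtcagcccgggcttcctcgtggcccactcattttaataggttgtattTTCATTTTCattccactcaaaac
Socs3, chr11:117977902-117978101, + strand: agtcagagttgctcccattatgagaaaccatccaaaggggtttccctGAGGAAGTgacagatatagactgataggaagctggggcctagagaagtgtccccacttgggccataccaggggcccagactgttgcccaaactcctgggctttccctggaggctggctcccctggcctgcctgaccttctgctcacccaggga
Cd83, chr13:43775392-43775591, + strand: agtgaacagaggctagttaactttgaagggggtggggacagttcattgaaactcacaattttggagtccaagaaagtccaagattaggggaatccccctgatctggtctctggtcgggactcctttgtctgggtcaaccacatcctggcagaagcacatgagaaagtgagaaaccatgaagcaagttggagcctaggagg

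NCoR was low at these sites in resting cells and high with KLA, which is what the choice required and is given as a description. The median site had 7.17 and 8.24 tags per 10 M in the Veh libraries and 81.8 and 82.3 in the KLA libraries. Site means ranged from 0 to 111 with Veh and from 50.02 to 582 with KLA, and the ratio reached 56.2 with a median of 6.65. Both KLA libraries lay above both Veh libraries at all 2179 sites, which were chosen on the means of these libraries. In 144 sites (6.61%) neither Veh library held a tag. A KLA mean over 100 was found at 780 sites and one over 200 at 149 sites. Together the sites held 0.220% and 0.259% of all Veh tags and 2.24% and 2.21% of all KLA tags.

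The choice could be repeated on 1 replicate and read in the other. The same limits applied to replicate 1 took 2571 sites, of which 64.0% kept a ratio of 4 or more and 92.1% a ratio of 2 or more in replicate 2. Applied to replicate 2 they took 2177 sites, of which 76.1% and 97.2% did so in replicate 1. The median ratio of all distal sites was 1.03 in replicate 2 and 1.21 in replicate 1. These are the same libraries that made the choice, so the shares describe how far it repeats and are not a test. At the limits, the Sh2d4a site was inside at a KLA mean of 50.02 and the Ing1 site outside at 49.97, the Eml2 site was inside at a ratio of 4.0004 and the 4933402J15Rik site outside at 3.9997, and the Stap1 site was inside at 2009 bp and the Foxp1 site outside at 1996 bp. A further 264 sites within 2000 bp of a TSS passed the other limits and are not members.

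The gained sites were mostly intergenic (1064, 48.8%) or intronic (1055, 48.4%), close to the 44.9% and 51.3% of all distal NCoR sites. The others were 27 at transcription termination sites, 18 in 3′ UTRs, 12 in exons and 3 in non-coding RNA genes. The NCoR peak had been called in the KLA condition alone at 2048 sites, in both conditions at 130 and in Veh alone at 1. The share called in KLA alone was 94.0%, against 43.2% of all distal sites, a difference that the choice itself favours. The median distance to the nearest TSS was 27102 bp, against 21488 bp for kept and 23619 bp for lost sites, and 641 sites (29.4%) lay over 50 kb away. Another gained site was found within 10 kb for 641 sites (29.4%), against 40.8% of kept sites among themselves and 19.3% of lost sites, lists of unequal size. The longest runs with gaps of at most 10 kb held 7 sites each, near Ch25h (chr19:34431368-34451279), the enzyme of 25-hydroxycholesterol synthesis, and near 4930529L06Rik (chr16:84603781-84627406).

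The nearest genes numbered 1442, and 1017 of them had a single gained site. The genes with the most were 1700016G22Rik with 13, 4930529L06Rik and Ch25h with 11 each, and Nr3c1, which encodes the glucocorticoid receptor, and Slco3a1, a transporter gene, with 10 each. Nfkb1, the gene of an NFκB subunit, had 9. A nearest gene is a label of position and not a measured target.

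The nearest genes were read against 12 groups of genes with roles in macrophages. NFκB pathway genes had 209 distal NCoR sites, of which 40 were gained, at 11 of 19 listed genes. Of the rest, 33 were kept and 1 lost. Gained sites included 8 of Tnfaip3, a ubiquitin-editing inhibitor of NFκB, and 7 of Nfkbiz, which encodes the inducible IκBζ. A further 3 were at Nfkbia, which encodes IκBα. Cytokine genes had 196 distal sites, with 36 gained, 30 kept and 3 lost. The gained ones included 7 each of Il6 and Edn1, the endothelin gene, and 4 of Il12a, a subunit gene of interleukin 12. Chemokine genes had 108 distal sites, with 13 gained, 14 kept and 1 lost. Over all distal NCoR sites the gained share was 4.94%.

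TLR signalling and feedback genes had 22 gained sites of 203 distal NCoR sites, with 51 kept. Genes of the IRF, STAT and interferon response had 20 gained of 142, at 14 of 26 genes, with 21 kept. Lipid mediator and effector genes had 18 gained of 147, with 18 kept. Of all their distal NCoR sites, AP-1 and ATF genes had 7 gained of 134, with 27 kept, macrophage lineage genes 7 of 177, with 40 kept, and nuclear receptor and clock targets 2 of 121, with 29 kept, and both of the last were at Nfil3, a clock-controlled repressor gene. The corepressor and coactivator subunit genes had 2 gained sites of 77, both at Tbl1xr1, whose product is a subunit of the NCoR complex. The osteoclast list had 3 of 54, all at Tnfrsf11a, which encodes the RANKL receptor. MicroRNA hosts had 6 gained sites of 38, 3 at Mir155hg, 2 at Mir147 and 1 at Mir21a. The kept list holds 7654 sites and the gained list 2179, so equal counts are unequal shares, and differences between the groups were not tested.

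The strongest site lay at -9620 bp from the TSS of Cd83 (chr13:43775359-43775626), a co-stimulatory surface protein of activated antigen-presenting cells, with NCoR at 81.3 and 118 in Veh and 641 and 523 in KLA. At the site in intron 1 of Nfkb1 (chr3:135670639-135670856) the values were 49.0 and 31.8 in Veh against 532 and 494 in KLA. The strongest Nfkbiz site had 34.7 and 42.4 in Veh and 401 and 387 in KLA. These are among the sites with the highest levels with KLA. The site near Tnfaip3 (chr10:19078190-19078407) had 5.97 and 9.42 in Veh and 230 and 240 in KLA. The site upstream of Socs3, which encodes a feedback inhibitor of cytokine signalling, had 50.2 and 64.7 against 404 and 379.

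Among chemokine and cytokine genes, the site near Cxcl5, a neutrophil-attracting chemokine gene, had 4.78 and 18.8 in Veh and 334 and 321 in KLA. The site at -3627 bp from the TSS of Ccl7, a monocyte chemoattractant gene, had 63.3 and 49.4 against 286 and 300. The Il12b site had 14.3 and 29.4 against 314 and 271, and that of its partner subunit gene Il12a had 11.9 and 43.5 against 222 and 167. The strongest site of Il6, the gene of a cytokine of the acute-phase response, held no tag in either Veh library and 161 and 139 per 10 M with KLA. Il6 and Il12 subunits are secreted by activated macrophages. The site at -2934 bp from the TSS of Cp, which encodes the ferroxidase ceruloplasmin, had 27.5 and 37.7 in Veh and 286 and 234 in KLA. No gained site carried the name Ptgs2, the cyclooxygenase 2 gene, and 2 carried that of its neighbour Ptgs2os2. The stronger of the pair had 20.3 and 3.53 in Veh and 399 and 401 in KLA.

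Gained sites of the IRF, STAT and interferon response group had a median KLA mean of 85.5, against 82.0 over all gained sites. The site in intron 1 of Usp18, which removes ISG15 from proteins, had 1.19 and 0 in Veh and 180 and 162 in KLA, and the site near Irf8, a lineage-defining interferon regulatory factor gene, had 17.9 and 28.2 against 151 and 165. The largest ratios belonged to Slco3a1 (0 and 0 in Veh, 291 and 261 in KLA), Gatm (0 and 3.53 in Veh, 308 and 301 in KLA) and Lpp (0 and 0 in Veh, 225 and 174 in KLA). The site at -9926 bp from the TSS of Mir155hg, the host gene of the inflammatory microRNA miR-155, had 4.78 and 4.71 in Veh and 198 and 183 in KLA.

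**Figure D1:**
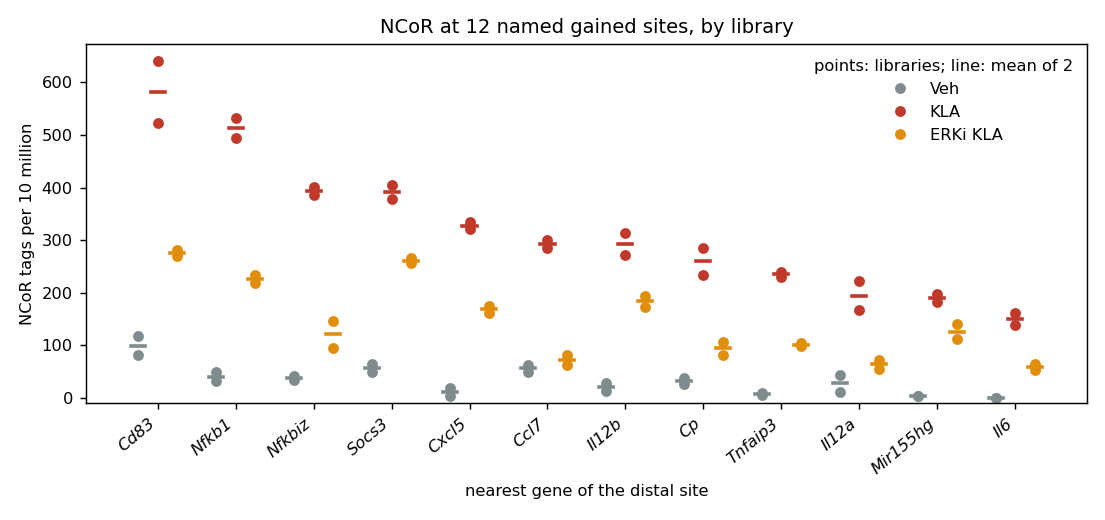
NCoR level (tags per 10 M, vertical axis) in each library at 12 named gained sites, labelled by nearest gene, with Veh, KLA and ERKi KLA libraries as points and the mean of 2 as a line. All KLA points lie above the Veh points, at sites chosen for a difference in these means, and the ERKi KLA points lie below the KLA points at each of these sites, for example 281.5 and 270 against 641 and 523 at Cd83.

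Peaks of other factors were counted at a site when their centre lay within 500 bp. HDAC3, the enzyme that NCoR carries, had a peak at 98.7% of gained sites, with a median centre distance of 15 bp, against 99.7% of kept and 90.0% of lost sites. p65 had a peak at 95.4% of gained, 95.9% of kept and 52.0% of lost sites, and p300 at 94.1%, 98.0% and 78.0%. Fosl2 (72.7%, 86.6% and 64.4%), PGC1β (65.8%, 83.6% and 58.1%) and ERK1 (54.8%, 76.2% and 38.3%) were found at fewer gained than kept sites. The widest gap was in PU.1, with a peak at 779 gained sites (35.8%) against 90.4% of kept and 83.6% of lost sites. Over all distal NCoR sites the shares were 80.2% for HDAC3, 73.9% for p65, 83.4% for p300 and 63.3% for PU.1. They were 54.7% for Fosl2, 54.0% for PGC1β and 43.8% for ERK1, each below the share at gained sites. The PU.1 table held 31970 peaks called in Veh alone, 17551 in both conditions and 1169 in KLA alone, and the sites were chosen for little NCoR in Veh, so these shares are descriptions of peak lists of unequal make-up.

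**Figure D2:**
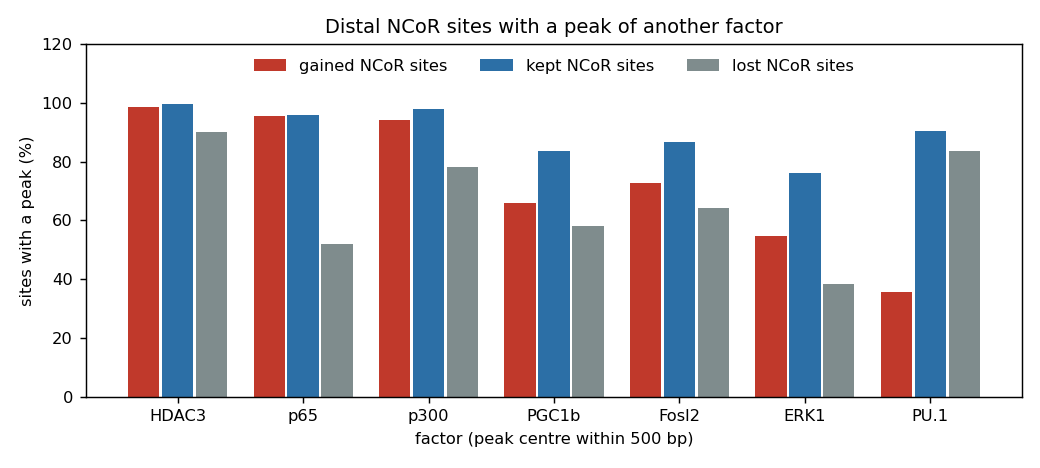
Share of gained (n = 2179), kept (n = 7654) and lost (n = 1123) distal NCoR sites with a peak centre of each of 7 factors within 500 bp. HDAC3, p65 and p300 bars stand above 94% at gained sites, and the PU.1 bar is at 35.8% against 90.4% at kept sites.

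All 7 factors had a peak at 445 gained sites (20.4%), against 61.2% of kept and 21.2% of lost sites, and 6 of 7 at a further 633. The most frequent combination after all 7 lacked PU.1 alone (430 sites). The 2 gained sites with none were near Ppp4r2 and Ifih1. Gained sites with a PU.1 peak had more NCoR than those without, with medians of 106 against 73.6 with KLA and 11.8 against 6.47 with Veh. Across gained sites with a peak, the NCoR level with KLA followed the HDAC3 level with KLA (Spearman rho 0.85 over 2150 sites), and less closely those of PGC1β (0.53), Fosl2 (0.51), p65 (0.51), ERK1 (0.50), p300 (0.47) and PU.1 (0.23). At kept sites each of the 7 factors had a higher value, from 0.39 for PU.1 to 0.90 for HDAC3. These correlations are across sites of the same libraries, which share chromatin accessibility and sequence composition, and are descriptions. The HDAC3 and NCoR libraries also share inputs and a date code by their labels.

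The letters under the sites differed in composition. A κB match was found in the 200 bp around 178 gained sites (8.17%), against 1.79% of kept, 0.446% of lost and 2.20% of all distal NCoR sites in windows of the same length. ISRE letters were found at 23.6% of gained sites, against 13.5%, 9.28% and 13.8%. Each site is counted once in these shares. The 515 gained sites with ISRE letters held 913 matches, with 2 or more at 109 sites. The 1036 kept sites with them held 1146 matches, and whether runs of matches are repeats was not tested. AP-1 matches stood at 24.4%, close to the 23.5% of all distal sites and below the 28.0% of kept sites. PU.1 letters were the reverse, at 4.36% of gained sites against 13.4% of kept and 11.5% of all distal sites. The nuclear receptor half-site AGGTCA was found at 12.2% of gained, 17.3% of kept and 27.5% of lost sites.

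The C/EBP letters TTGCNNAA were found at 20.8% of gained and 17.4% of all distal sites. The cyclic AMP response element TGACGTCA was found at 0.367% of gained sites, the STAT site TTCCNGGAA at 1.15%, the E-box CACGTG at 2.20%, and ANTAGGTCA, which contains the half-site and is counted in it, at 0.642%. At least 1 of the 10 motifs was found at 1508 gained sites (69.2%), while κB and AP-1 letters stood together at 42. Of the κB matches, 46.7% lay within 25 bp of the NCoR centre, against 29.2% at kept sites. The median GC content of the windows was 41.5% for gained, 46.0% for kept, 50% for lost and 45.5% for all distal sites, and its part in these shares was not tested.

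Matches also followed the factor peaks. Members with an AP-1 match had a Fosl2 peak in 86.8% of cases against 68.1% of those without, and members with a PU.1 match had a PU.1 peak in 69.5% against 34.2%. Among the 101 gained sites without a p65 peak, 52.5% held ISRE letters, against 22.2% of those with one, and 0.990% held a κB match, against 8.52%. The median ratio of KLA to Veh was 8.46 at sites with a κB match and 6.51 at the others. A match is a description of the exact letters searched and not a bound factor, and other forms of each site were not counted.

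**Figure D3:**
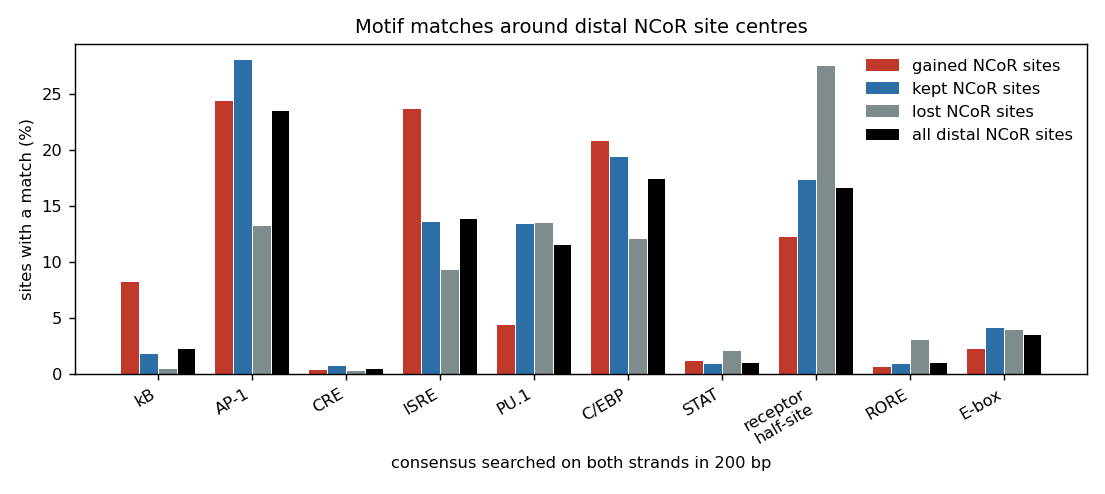
Share of gained, kept, lost and all distal NCoR sites with a match to each of 10 consensus motifs, searched on both strands in 200 bp around the site centre. The gained bars stand above the others for κB (8.17%) and ISRE (23.6%) and below the others for PU.1 (4.36%).

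The next comparisons asked whether the other factors changed with KLA at the gained sites, on libraries that did not enter the choice. By their labels, the HDAC3 libraries share inputs and a date code with the NCoR libraries, so they may not be independent samples. Each count is of distinct tested regions matched within 500 bp. A peak had to be called in Veh or KLA to be in its table, and most matched peaks had been called in KLA alone (from 52.7% for PU.1 to 96.3% for HDAC3), so that they had little room to be lower. Counts for peaks called in both conditions are therefore given as well.

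HDAC3 was called higher with KLA at 2131 of 2147 matched peaks and lower at 0, with a median log2 change of 3.22, against 27.5% higher and 11.3% lower among all tested HDAC3 peaks. The 2 Veh libraries had median levels of 10.2 and 10.5 at these peaks and the KLA libraries 83.8 and 119. Among the 80 matched peaks called in both conditions, 71 were higher. At kept NCoR sites the median change of HDAC3 was 0.12 (-0.15 with the alternative TMM scaling factors, so its sign was not fixed) and at lost sites -2.30. The lowest p-value among gained sites was at Slco3a1, where HDAC3 was 1.45 and 2.21 in Veh and 268 and 413 in KLA, a log2 change of 7.42 ± 0.56 (SE, n = 2 per group, edgeR adjusted p = 3e-36).

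p65 was called higher at 2066 of 2076 matched peaks and lower at 1, near Etf1, whose p65 peak was centred 241 bp from the NCoR centre. Of all tested p65 peaks, 57% were higher and 5.43% lower, and their median log2 change was 1.46, against 4.37 at gained sites. TMM scaling moves that overall median by -1.22, and the gained median is then 3.15 against 0.24. Median levels at gained sites were 5.25 and 6.53 in Veh and 128 and 135 in KLA, with 133 of 134 peaks called in both conditions higher. The lowest p-value was at the site near Mir3966, with 2.63 and 1.86 in Veh and 594 and 610 in KLA.

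p300 was called higher at 1984 of 2047 matched peaks and lower at 3 (42.1% and 12.9% of all tested), with a median log2 change of 3.67 and with 348 of 372 peaks called in both conditions higher. Its median level went from 7.52 and 7.23 to 102 and 105. At the weaker Ptgs2os2 site p300 was 1.88 and 1.97 in Veh and 445 and 449 in KLA, a log2 change of 7.81 ± 0.26. p300 near Pias1, the gene of a SUMO ligase, was lower with KLA (118 and 102 against 31.7 and 39.5), as were Fosl2 and PU.1 there, and these peaks were centred 419, 382 and 474 bp from the NCoR centre. The other p300 peaks called lower, near Slc24a2 (35 bp) and Parp14 (403 bp), had at most 23.2 tags per 10 M in any library. TMM factors took the kept median of p300 from 0.48 to -0.04.

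Fosl2 was called higher at 1340 of 1572 matched peaks and lower at 1 (11.4% and 4.19% of all tested), with a median log2 change of 3.77. Its 2 KLA libraries differed, with medians of 88.4 and 174 against 9.87 and 9.44 in Veh, and without either Veh library no peak was called. Of the 240 peaks called in both conditions, 162 were higher. At the Il6 site Fosl2 held no tag in Veh and 426 and 729 per 10 M in KLA, at least 320-fold higher when the Veh group is set to 3 tags over both libraries.

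PGC1β was called higher at 1332 of 1417 matched peaks and lower at 1 (16.4% and 6.35% of all tested), with a median log2 change of 3.04. In the separate experiment with DMSO it was higher at 1435 of 1656 and lower at 0 (16.4% and 1.23%), with a median of 3.25. The peak that was lower, 338 bp from a gained site near Ccl3, the gene of the chemokine MIP-1α, had 119 and 99.9 in Veh and 41.5 and 41.2 in KLA. ERK1 was called higher at 767 of 1181 matched peaks and lower at 0 (10.3% and 2.53%), with a median of 2.87 and median levels of 4.72 and 5.78 in Veh and 45.5 and 40.8 in KLA. Of the 59 ERK1 peaks called in both conditions, 21 were higher, and of 111 PGC1β peaks, 77. The lowest ERK1 p-value was in intron 1 of Slc15a3, a transporter gene, with 9.44 and 9.25 in Veh against 192 and 151 in KLA. Leaving out a KLA library lowered the ERK1 count to 298 (replicate 1) or 395 (replicate 2).

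PU.1, the macrophage lineage factor, was called higher at 589 of 767 matched peaks and lower at 3, with a median log2 change of 2.01. Among all tested PU.1 peaks 4.53% were higher and 21.7% lower, with a median of -0.41. With TMM factors these became 9.13%, 10.6% and 0.0018, and the gained median became 2.42. Median levels at gained sites were 30.5 and 30.5 in Veh, the highest Veh level of the 7 factors, and 115 and 113 in KLA. Of the 295 peaks called in both conditions, 175 were higher. At kept sites the median was -0.14 (0.27 with TMM factors) and at lost sites -1.75. The 3 that were lower, near Plbd2, Platr26 and Pias1, lay 342 to 474 bp from the NCoR centre. The lowest p-value was at a site in intron 3 of Gpd2, a mitochondrial glycerol phosphate dehydrogenase gene, where PU.1 was 23.3 and 13.7 in Veh and 284 and 270 in KLA, a log2 change of 3.87 ± 0.15.

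**Figure D4:**
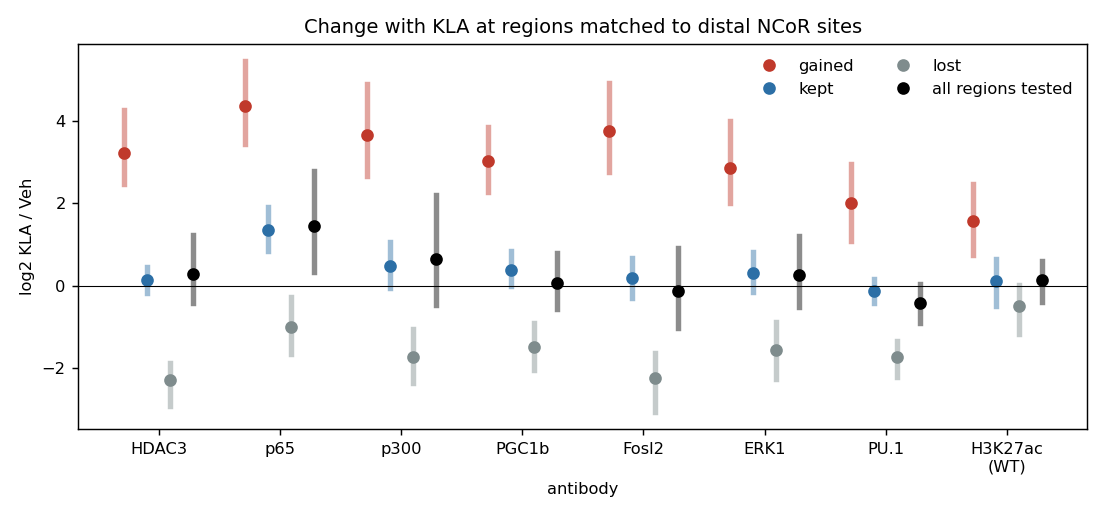
Median log2 ratio of KLA to Veh (points) and the range from the 25th to the 75th percentile (bars) at regions matched to gained, kept and lost distal NCoR sites and at all regions tested, for 7 factors and for H3K27ac in WT cells. Gained sites have medians of 1.57 to 4.37, and PU.1 is the factor with the smallest gained median, 2.01.

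The values at single sites show the size of these changes. At Nfkb1, p65 went from 7.88 and 23.3 to 547 and 569 (log2 5.17 ± 0.33, adjusted p = 9.3e-07), PU.1 from 11.4 and 4.98 to 133 and 120 (3.89 ± 0.23, adjusted p = 4.3e-34), and p300 from 25.7 and 12.5 to 335 and 352 (4.16 ± 0.23, adjusted p = 6.5e-10). At Cxcl5, p300 went from 3.13 and 1.97 to 184 and 194 (6.16 ± 0.32) and no PU.1 peak was matched. At Il12a, p65 went from 4.38 and 0 to 295 and 328 (7.05 ± 0.47). At Cp, PU.1 went from 10.9 and 13.1 to 91.6 and 88.6 (2.92 ± 0.23) and p65 from 25.4 and 30.8 to 421 and 452 (3.96 ± 0.23). At all 4 of these sites Fosl2 was called higher, and these calls were lost when either Fosl2 Veh library was left out.

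Over all matched peaks of gained sites, 99.3% were called higher for HDAC3, 99.5% for p65, 96.9% for p300 and 76.8% for PU.1, most of them called as peaks in KLA alone, and the counts by gene group are read beside these shares. HDAC3 was higher at 40 of 40 and p65 at 39 of 39 matched peaks of NFκB pathway genes, and p300 at 39 of 39 and PU.1 at 16 of 17. At cytokine genes HDAC3 was higher at 35 of 35, p65 at 36 of 36, p300 at 33 of 33 and PU.1 at 13 of 13. At genes of the IRF, STAT and interferon response HDAC3 was higher at 19 of 19, p65 at 15 of 16 and p300 at 13 of 16, with a median log2 change of p300 of 2.18, against 4.90 at cytokine genes. At chemokine genes, p65 and p300 were each higher at 12 of 12, and PU.1 at 2 of 4. These groups were read beside the medians of all tested peaks given above, and their differences from each other were not tested.

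ERK inhibition was followed by less NCoR at the gained sites. This comparison shares its KLA libraries with the choice of the sites, so it is a description without a test. In tags per 10 M, the median gained site had 85.0 and 86.5 with KLA and 32.1 and 29.3 with ERKi and KLA, which lay above the 7.17 and 8.24 of Veh. The median log2 ratio of ERKi KLA to KLA was -1.42, against -1.18 at kept, -0.30 at lost and -1.01 at all 57573 sites. The mean was at or below 1/2 of the KLA mean at 1662 of 2177 gained sites (76.3%), against 64.1% of kept, 17.3% of lost and 50.3% of all sites.

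The size of this difference depended on the scaling. The NCoR sites of the table held 15.8% and 15.0% of all tags in the ERKi libraries against 34.2% and 33.3% in the KLA libraries. With TMM factors, the median ratio was -0.37 at gained, -0.09 at kept, 0.50 at lost and -0.04 at all sites, so the direction at gained sites held while that at lost sites turned. The ERKi libraries carry another date code than the KLA libraries, which have no solvent label. Inhibitor, date and any solvent cannot be told apart, and the labels of the ERKi libraries give no time of KLA. At named sites, Cd83 had 281.5 and 270 with ERKi, Nfkb1 233 and 219, Nfkbiz 95.5 and 147, and Adgre1, the F4/80 gene, 13.5 and 8.62 against 129 and 164 with KLA. The ERKi level was above the KLA level at 18 gained sites.

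PGC1β showed little response to the inhibitor at the same sites, in an experiment that shares no library with the choice. It was called lower at 5 and higher at 3 of 1656 matched peaks, against 0.178% and 0.108% of all tested peaks, with a median log2 ratio of -0.27 at gained and -0.20 at all peaks. Median levels were 63.2 and 58.1 with DMSO and KLA and 51.6 and 50.4 with ERKi and KLA, and an unadjusted p under 0.05 was reached at 303 of the 1656, against 7670 of all 53474 tested peaks. The lowest p-values belonged to Saa3, an acute-phase serum amyloid gene, where PGC1β was 219 and 135 with DMSO and 37.5 and 23.3 with ERKi (log2 -2.54 ± 0.47, adjusted p = 0.021), and to Hs1bp3, where it was 11.8 and 2.98 with DMSO and 102 and 119 with ERKi. Neither call held when any 1 of the 4 libraries was left out. The other lower peaks were near Cybb, the phagocyte oxidase gene, Nrg4, Platr26 and Mettl7a1, and the other higher ones near Heatr9 and Mx1, an interferon-induced antiviral gene with 227 and 214 on DMSO and 638 and 513 on ERKi.

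H3K27ac was measured at few of the gained sites. In the WT and NKO table, whose regions have a median width of 291 bp, 357 gained sites (16.4%) had a region within 500 bp. This compares with 48.1% of kept, 27.1% of lost and 25.4% of all distal NCoR sites. Of the 349 regions matched to gained sites, 246 were tested. In the RGFP966 and Pgc1b experiments the regions are 1001 bp wide and come from open chromatin. There 134 gained sites (6.15%) had a region, against 52.5% of kept, 41.8% of lost and 30.8% of all distal sites. The paper ties the regions of the RGFP966 experiment to ATAC-seq peaks (open chromatin) found with Veh. Sites closed with Veh may therefore be missing, which was not tested. What follows is about these regions and not about all gained sites.

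With KLA, H3K27ac in WT cells was called higher at 109 of 246 regions and lower at 0, with a median log2 change of 1.57, while 6.49% of all regions were higher and 3.72% lower. In DMSO-treated cells it was higher at 91 of 133 and lower at 0 (6.73% and 28.1% of all regions), and in Pgc1b flox cells higher at 73 of 130 and lower at 0 (5.22% and 25.6%). The direction was the same in 3 separate sets of libraries. Over all 349 matched regions in WT cells, tested or not, median levels were 3.15 and 3.57 in Veh and 10.1 and 11.7 in KLA. In DMSO cells they were 29.1 and 27.04 in Veh and 120 and 96.8 in KLA. Regions of the WT and DMSO experiments differ in width (medians of 291 and 1001 bp), so levels are not comparable between them. At kept sites the medians were 0.10, -0.30 and -0.24, and each changed sign with TMM factors (-0.04, 0.12 and 0.19). Near Ehd1, an endocytic recycling gene, H3K27ac was 5.04 and 2.55 in Veh and 133 and 185 in KLA (log2 5.40 ± 0.34). Near 4933432I03Rik it was 4.15 and 10.5 against 374 and 304 in DMSO cells.

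In NKO cells the KLA response of H3K27ac had the same direction at most called regions. No value of NCoR in the NKO cells was analysed here, so the deletion itself rests on the labels. In NKO cells H3K27ac was higher with KLA at 71 and lower at 5 of the 246 regions (2.75% and 7.96% of all regions), with a median of 1.04. With KLA, NKO differed from WT at 1 region higher and 1 lower (0.4% and 0.389% of all regions), and the median ratio was -0.14 against -0.04 for all. Those were BC022687, with 17.0 and 18.6 in WT and 40.9 and 52.1 in NKO, and Atp6v1e2, the gene of a proton pump subunit, with 37.7 and 36.5 in WT and 6.37 and 9.72 in NKO (edgeR adjusted p = 0.032 and 0.046), and neither call held in every fit without 1 library. With Veh, NKO was higher at 10 regions and lower at 0 (0.973% and 0.027%), with a median of 0.42 against 0.30 for all regions, a shift that TMM scaling takes to 0.14 against 0.0046. Gadd45b, a stress-response gene, had 18.3 and 17.3 in WT and 62.7 and 54.6 in NKO.

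The KLA response itself differed between WT and NKO (the interaction) at 5 regions lower in NKO and 0 higher, against 0.67% and 0.027% of all regions. They were near Kdm6b, Gadd45b, 4933432I03Rik, Edn1 and Nsmce2. In the first intron of Kdm6b, which encodes a histone H3 lysine 27 demethylase, H3K27ac went from 78.8 and 62.1 to 172 and 179 with KLA in WT cells, and from 161 and 132 to 133 and 165 in NKO cells. The interaction was -1.31 ± 0.24 on the log2 scale (edgeR adjusted p = 0.0038). Both NKO libraries lay above both WT libraries with Veh and below them with KLA, and the region was not called between genotypes with KLA. The call was lost under TMM scaling (-0.96), the DESeq2 Wald test (-0.97) and without the second WT Veh library (-1.14). Within NKO cells, H3K27ac near Lrp1, which encodes an endocytic receptor, was lower with KLA (117 and 94.6 in Veh, 51.0 and 43.1 in KLA). It was also lower near Arhgef3, Foxp1, 1700123M08Rik and Nsmce2. Of these regions, that near Nsmce2 alone was also called in the interaction between genotypes. Lrp1 is a site where NCoR went from 4.78 and 27.1 to 174 and 180.

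HDAC3 inhibition by RGFP966 in the presence of KLA was compared with KLA alone, and H3K27ac was called higher at 25 and lower at 2 of 133 regions, against 26.9% and 9.53% of all regions. The share of higher calls at gained regions was 18.8%, whose difference from the whole table was not tested, and the median log2 ratio was 0.11, against 0.67 at kept, 1.26 at lost and 0.39 at all regions. Median levels were 120 and 96.8 with DMSO and KLA and 138 and 110 with RGFP966 and KLA. With TMM factors the split was 9 higher and 13 lower and the median -0.23, so the direction at gained regions flipped with the scaling while kept (0.33) and lost (0.93) regions stayed positive. Values at the ends were 20.7 and 22.7 with DMSO against 135 and 94.2 with RGFP966 near 1700012I11Rik, and 49.2 and 49.6 against 26.99 and 21.7 in Abcc4, an exporter gene. The other lower region was near Mir6356.

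In Pgc1b flox Cre cells with KLA, H3K27ac was lower than in flox cells at 17 of 130 regions and higher at 0, against 6.81% and 0.702% of all regions, with a median of -0.53 against -0.49 at kept and -0.38 at all regions. TMM scaling brought these medians to -0.14, -0.10 and 0.01 and the counts to 4 lower and 1 higher. Over all 133 matched regions, median levels were 89.4 and 89.3 in flox and 60.0 and 59.3 in Cre cells with KLA. With Veh they were 32.5 and 27.02 in flox and 29.3 and 27.2 in Cre cells. The KLA response differed (the interaction) at 10 regions lower and 1 higher in Cre cells (4.6% and 0.77% of all regions). At Lrp1 H3K27ac was 268 and 335 in flox and 129 and 105 in Cre cells with KLA, but 376 and 352 against 321 and 311 with Veh, an interaction of -1.17 ± 0.15 (adjusted p = 4.5e-13), in a region centred 416 bp from the NCoR site. The region near Ccl7 went from 25.8 and 38.1 to 152 and 165 with KLA in flox cells and from 34.9 and 43.8 to 39.7 and 52.7 in Cre cells. The 1 higher region, near Dnm3os, went from 21.9 and 12.5 to 80.8 and 94.3 in flox and from 9.98 and 9.95 to 114 and 134 in Cre cells.

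**Figure D5:**
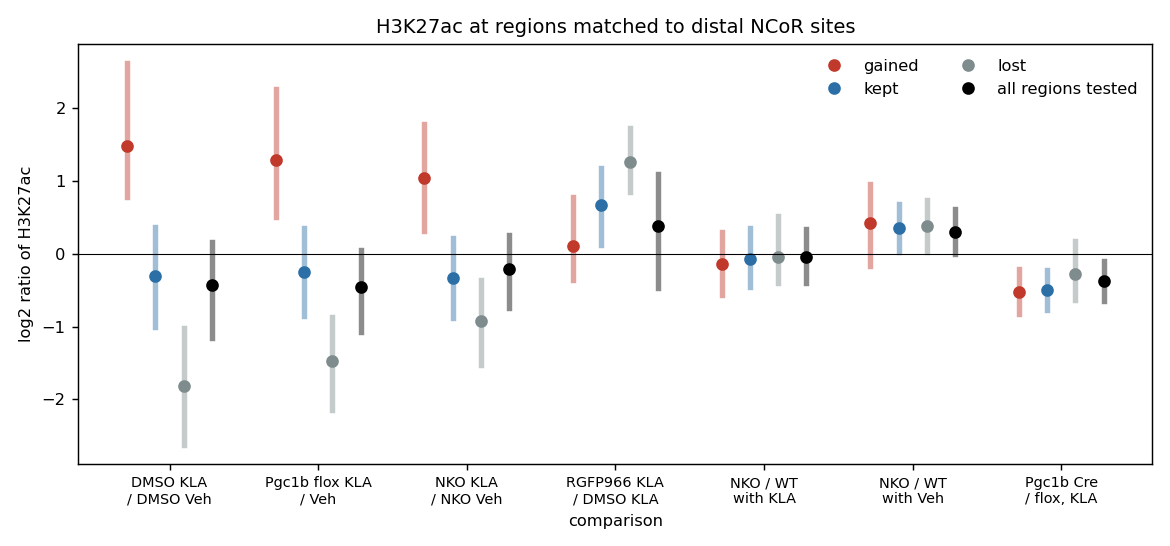
Median log2 ratio of H3K27ac (points) with the range from the 25th to the 75th percentile (bars), by library totals, in 7 comparisons at regions matched to gained, kept and lost distal NCoR sites and at all regions tested. Gained regions have medians of 1.04 to 1.48 in the first 3 comparisons, which set KLA against Veh, and of -0.53 to 0.42 in the other 4; the RGFP966 median of 0.11 becomes -0.23 and the WT and NKO Veh median of 0.42 becomes 0.14 with TMM factors.

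Few of the gained sites had a peak in the osteoclast experiment. p300 had a peak of the Day0 and Day4 table at 13.0% of gained sites against 55.4% of kept sites, and ERK1 at 5.64% against 55.5%. Over all distal NCoR sites the shares were 28.0% for p300 and 25.4% for ERK1. p300 was called higher at Day4 at 227 of 278 tested peaks and lower at 0, against 62.2% and 0.248% of all tested peaks, with a median log2 change of 2.52 against 1.84 for all. TMM scaling moved the overall median by -1.61 and left 43 higher and 1 lower, with a gained median of 0.91 against 0.07 at kept sites. The lowest p-value was at a site 39974 bp from Fos, the AP-1 gene that osteoclast formation requires, where p300 was 3.52 and 8.52 at Day0 and 476 and 468 at Day4.

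ERK1 was higher at Day4 at 7 of 122 peaks and lower at 0 (2.33% and 0.0267% of all tested), and at 0 under TMM scaling. Its lowest p-value was near Mterf1b, where no tag was counted at Day0 and 34.2 and 10.8 per 10 M at Day4, at least 15.8-fold higher against 3 tags over the Day0 group. One of the Day4 ERK1 libraries is described with another replicate number than its title gives, with another date code than the other ERK1 libraries of that experiment and without the tag NCoRWT that these carry, and no ERK1 peak at gained sites was called without either Day4 library.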

How the data were processed

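ChIP-seq was performed by the authors in BMDMs and osteoclast cultures, and raw tag counts per region were deposited in 15 tables for 70 libraries; the 30 input libraries were not analysed here. Per the study's methods and the submitters' processing notes, reads were aligned to mm10 with Bowtie2, peaks were called with HOMER, filtered by the irreproducible discovery rate between the 2 best correlated replicates and merged over conditions, and tags were counted without adjustment (versions not given in the sources used here). Factor chromatin was fixed with disuccinimidyl glutarate and formaldehyde, H3K27ac chromatin with formaldehyde alone. Groups came from the labels.

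Counts were divided by the library totals in the column headers. Regions with 4 tags (factors) or 16 tags (H3K27ac) in at least 1 library were tested two-sided with the quasi-likelihood method of edgeR 4.0.16 in R 4.3.3, in 1 fit per table with all its groups, in 21 comparisons, with Benjamini-Hochberg adjustment over all tested regions. SE was the log2 change divided by the square root of F. Sites and regions were matched by centre within 500 bp. Library totals and groups of 2 limit the precision at low levels. Coordinates were checked against GRCm38.p6: all 55038 sites on its chromosomes lay inside them, and 94.9% of 2166 listed TSS distances were within 10 bp. Alternatives were TMM factors, DESeq2 1.42.0, no filter, other match distances, a replicate block and leaving out each library. Replicate numbers were not used as pairs in the main fits.

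The sites, gene groups, motifs and named sites were chosen with earlier results of these data known. Named were up to 3 sites per gene group and the 5 with the highest NCoR level, 1 per gene, the 3 with the largest ratio, the strongest at Ptgs2, Cp and Il12a, for each comparison the called region of lowest p-value, higher and lower separately, and the sites nearest each limit. The printed sequences and the other sites described were taken from these, and 1 sequence is not reported here; nearest genes with the most sites, and the regions behind counts of 5 or fewer, were chosen after their values were seen.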

Additional observations from a re-analysis of the deposited data

Results flagged for a closer look

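Differences between genotypes in the KLA response of H3K27ac were tested as interactions, and those called at gained sites are repeated here. For NKO against WT, 5 regions had a lower response in NKO. They were near Kdm6b (-1.31), Gadd45b (-1.69), 4933432I03Rik (-2.63), Edn1 and Nsmce2, as differences of log2 changes, and with TMM factors none of the 5 was called (by library totals, 40 of 246 regions had an unadjusted p under 0.05, against 2592 of all 18504). At Gadd45b, H3K27ac was 18.3 and 17.3 with Veh and 103 and 116 with KLA in WT cells, and 62.7 and 54.6 against 114 and 108 in NKO cells. At 4933432I03Rik the WT values were 8.20 and 6.11 against 32.7 and 64.1, and the NKO values 36.1 and 11.6 against 24.4 and 26.4, where the 2 NKO Veh libraries differed more than the NKO groups did.

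For Pgc1b flox Cre against flox, 10 regions had a lower and 1 a higher response in Cre cells. The named ones were Ccl7 (-2.08), Lrp1 (-1.17) and Dnm3os (1.32). The Dnm3os call was lost without the first flox Veh library (0.83) and without the first Cre Veh library, where the value stayed at 1.32. Single samples were not tested for standing apart, since groups of 2 do not allow it.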

How the results depend on the processing

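The choice of sites and the calls of HDAC3, p65, p300, PGC1β and PU.1 with KLA stayed within 1.5 times of their counts under every alternative run, and no named region reversed its direction. Of 461 named values, 433 kept their side of the threshold with TMM factors, 423 with the DESeq2 Wald test, 460 without a filter and 432 with the replicate block, while in fits without 1 library 1609 kept it and 258 lost it. In the cases below the cause was not tested.

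With TMM factors, calls at gained sites became 2 lower (PGC1β, ERKi), 1 higher (NKO against WT with Veh), 0 lower (NKO interaction), 13 lower (RGFP966), 4 lower (Pgc1b Cre with KLA), 4 lower (Pgc1b interaction), 43 higher (p300, Day4) and 0 higher (ERK1, Day4), and the median NCoR ratio with ERKi -0.37. With DESeq2 they became 12 lower (PGC1β, ERKi), 0 lower (NKO against WT with KLA), 1 higher (NKO against WT with Veh), 0 lower (NKO interaction), 8 lower (RGFP966), 2 lower (Pgc1b Cre with KLA), 2 lower (Pgc1b interaction), 21 higher (p300, Day4) and 0 higher (ERK1, Day4). Without a filter, NKO against WT with KLA had 2 lower and the NKO interaction 9. Matching within 100 bp gave 0 lower (NKO against WT with KLA), 4 higher (NKO against WT with Veh), 1 lower (NKO interaction), 56 higher (DMSO KLA), 43 higher (Pgc1b flox KLA), 7 lower (Pgc1b Cre with KLA) and 6 lower (Pgc1b interaction), the last reaching 16 within 1000 bp.

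Replicate numbers showed no sign of pairing: deviations from group means correlated at -0.027 to 0.026 in 27 pairs of groups. These correlations are over all tested regions, where counting noise at low levels can hide a pairing, so pairing is not excluded. With the replicate block, Fosl2 had 701 higher, PGC1β with ERKi 2 lower and NKO against WT with KLA 0 lower, and no other count of calls moved by over 1.5 times.

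Leaving out 1 library at a time gave 0 to 1543 higher for Fosl2 (0 without either Veh library), 0 to 1 lower for PGC1β with ERKi, 298 to 794 higher for ERK1 with KLA, 70 to 95 higher for H3K27ac in WT, 39 to 52 higher in NKO, 0 lower for NKO against WT with KLA, 1 to 8 higher for NKO against WT with Veh, 0 to 8 lower for its interaction, 0 to 3 lower for RGFP966, 6 to 11 lower for the Pgc1b interaction, 67 to 250 higher for p300 at Day4 and 0 to 15 higher for ERK1 at Day4. The lowest counts came without the first or second WT Veh library (72 and 70), the first or second NKO KLA library (39 and 46), either p300 Day4 library (76 and 67) and either ERK1 Day4 library (0). The median NCoR ratio with ERKi ranged from -1.49 to -1.40. A lone library left in a group is assumed to vary like the other groups. The shallowest libraries, among them Fosl2 KLA (4.30 M tags), p300 Day0 (4.70 M) and HDAC3 KLA (5.69 M), limit what low levels can show.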
